A study of Homo sapiens with 5 samples.

Results

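NRF2, encoded by NFE2L2, is a transcription factor that switches on genes of antioxidant defence, glutathione synthesis and detoxification. The genes described here are NFE2L2 and its relative NFE2L1, the NRF2 antagonists KEAP1 and BACH1, the small MAF genes MAFF, MAFG and MAFK, and SQSTM1. They were taken by symbol from the platform's annotation. Of these 8 genes, 7 were named by 14 probe sets of the 22215 on the array, each naming 1 gene alone, among 12165 genes named in that way. MAFK was not analysed here.

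By the titles, RNA came from LNCaP, a human prostate cancer line that responds to androgen. The cells were grown in RPMI medium with 10% serum and lysed after 6 h of treatment. The treated cells received celastrol at 1.25 µM (2 arrays), a quinone methide triterpenoid from thunder god vine, and the control cells received its solvent DMSO (3 arrays). Arrays within a group are numbered as biological replicates in the titles, which do not say whether they came from separate cultures, so the spread between them may be partly technical. Each value is a deposited intensity on a linear scale, and differences are celastrol minus DMSO in log2(intensity + 1), which understates the change of dim probe sets.

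The array labelled DMSO replicate 3 stood apart and is not part of the comparison. Its Pearson correlation with the other arrays over all probe sets was 0.843 to 0.844, while the other 4 correlated with each other at 0.994 to 0.998. All 8 measured markers of luminal prostate epithelium stood at least 2-fold below their mean on the other DMSO arrays, and all 11 measured leukocyte markers stood at least 2-fold above it. The summed intensity of the luminal markers was 13336 to 13727 on the celastrol arrays and 14213 to 14465 on DMSO replicates 1 and 2, against 185 on DMSO replicate 3. For the leukocyte markers the sum was 795 to 812 and 869 to 870, against 32338. KLK3, which encodes prostate-specific antigen, read 1194 and 1077 with celastrol, 1891 and 1670 on DMSO replicates 1 and 2 and 22.6 on DMSO replicate 3. The other 4 arrays thus carried the markers of their labelled line, while DMSO replicate 3 was not LNCaP-like.

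In the resting cell KEAP1 holds NRF2 for ubiquitination by a CUL3 ligase and NRF2 is rapidly degraded, so its activity is set largely at the protein level. Electrophiles that modify cysteines of KEAP1 let NRF2 accumulate, enter the nucleus and pair with a small MAF protein on antioxidant response elements. BACH1 competes for the same elements as a heme-sensitive repressor, and SQSTM1 (p62) can bind KEAP1 and carry it into autophagosomes, while its own gene is a known NRF2 target.

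After celastrol the transcripts of SQSTM1 and MAFG stood highest above DMSO, and those of NFE2L2, NFE2L1 and KEAP1 lay close to DMSO. SQSTM1 was 2.40-fold and MAFG 1.56-fold above DMSO by their brightest probe sets, while the KEAP1 difference was 0.00 (SE 0.0371). No member passed the limma test over the whole table: 0 of 14 probe sets had an adjusted p under 0.05, where 2 of all 22215 did (0.009%), 1 higher (0.0045%) and 1 lower (0.0045%). With 2 arrays a group, the test has few degrees of freedom, and an exact permutation test could not go below p = 0.333. Before adjustment, 6 of the 14 had a limma p under 0.05, against 13.2% of all probe sets. In these 6 both celastrol arrays lay above both DMSO arrays, against 14.5% of all probe sets. In 0 of 14 both lay below, against 17.6%, and the other 8 overlapped. Counting each gene once by its brightest probe set, NFE2L2, BACH1, MAFG and SQSTM1 lay above DMSO, 4 of 7, against 15.0% of all genes. Of these, NFE2L2 differed by only 0.08, and BACH1 read low, at 24.5 to 29.8. The members were chosen with earlier results for SQSTM1 known, so these shares describe them only.

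**Figure D1:**
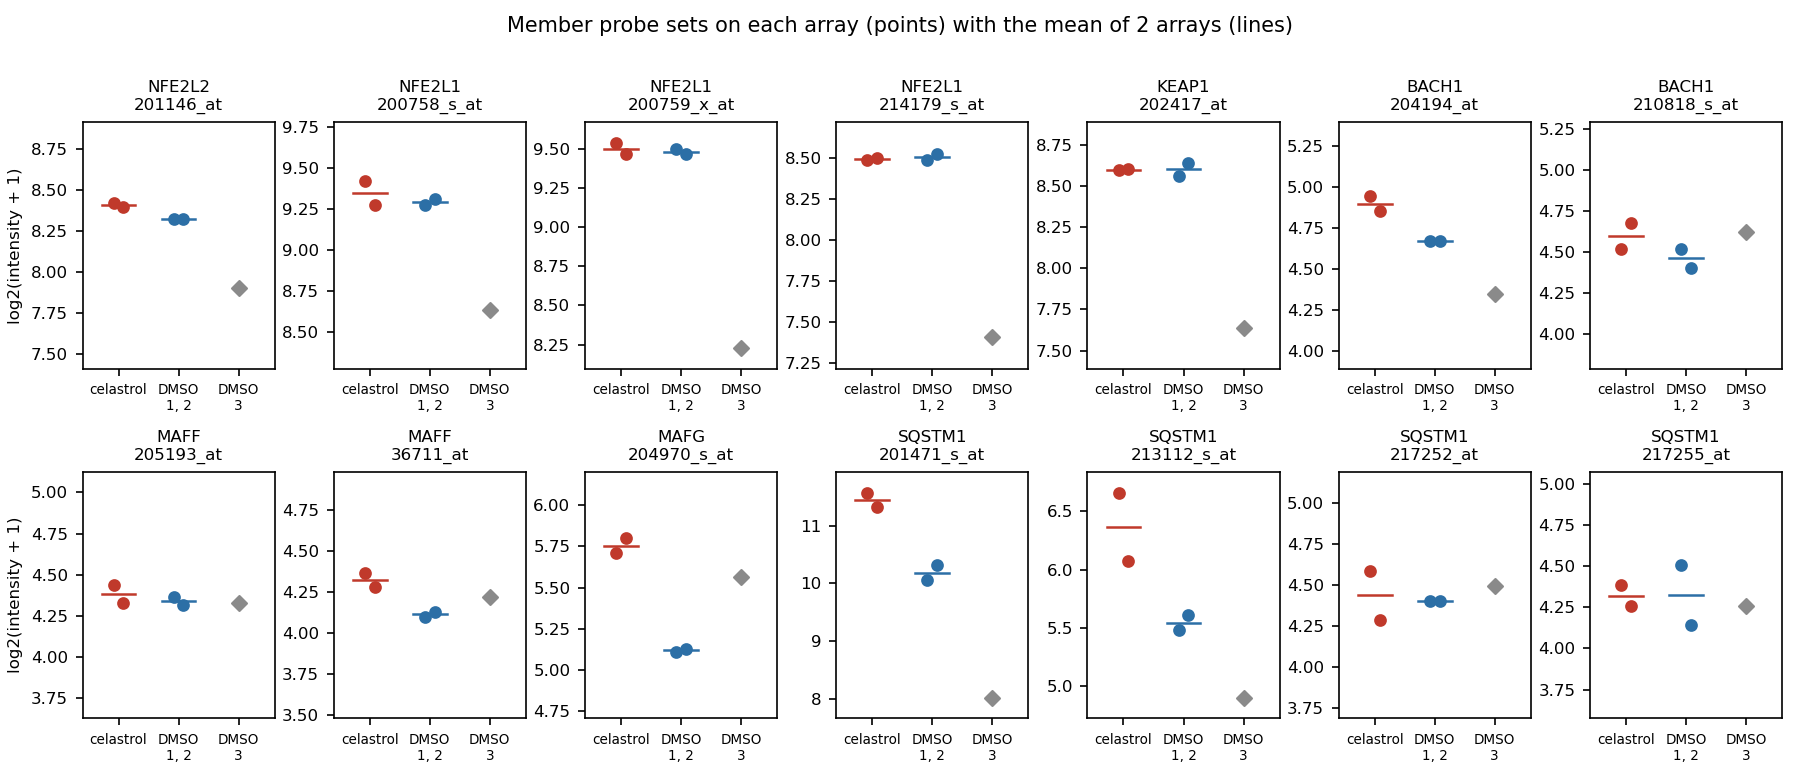
Level of each member probe set, in log2(intensity + 1), on the celastrol arrays (red), DMSO replicates 1 and 2 (blue) and DMSO replicate 3 (grey diamond), with lines at the mean of 2 arrays. Each panel has its own vertical range. The celastrol points lie clear of the blue points for MAFG and for the SQSTM1 probe sets 201471_s_at and 213112_s_at, and the grey point lies far below for NFE2L1, KEAP1 and SQSTM1 201471_s_at.

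NFE2L2, the gene of NRF2 itself, lies on chromosome 2 and had 1 probe set (201146_at). It read 342 and 335 with celastrol, against 319 on both DMSO arrays. Both celastrol values were higher, but by a small margin: the difference was 0.08 (SE 0.0212, 95% interval 0.02 to 0.15, limma adjusted p = 0.301). The 2 DMSO values were identical, as were those of 17.7% of all probe sets on these arrays, so the spread used here comes from the celastrol pair and from the other probe sets.

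NFE2L1, on chromosome 17, encodes NRF1, a related factor anchored in the endoplasmic reticulum that induces proteasome genes when proteasomes are impaired. Its 3 probe sets overlapped between groups, and in each a celastrol value was identical to a DMSO value. Probe set 200758_s_at read 687 and 618 with celastrol, against 618 and 635 with DMSO. Probe set 200759_x_at read 742 and 705, against 721 and 705, and 214179_s_at read 357 and 360, against 357 and 366. The differences were 0.06, 0.02 and -0.01, with limma adjusted p between 0.677 and 0.795, and the upper end of the widest 95% interval was 0.27.

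KEAP1, the substrate adaptor that captures NRF2, lies on chromosome 19 and read 386 and 389 with celastrol, against 377 and 398 with DMSO (202417_at). The celastrol values lay between the DMSO values. The 95% interval of the difference ran from -0.12 to 0.12 (limma adjusted p = 1).

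BACH1, the repressor of HMOX1 and other antioxidant response element genes, lies on chromosome 21. Its probe set 204194_at read 29.8 and 27.9 with celastrol, against 24.5 on both DMSO arrays. Both celastrol values were higher, by 0.23 (SE 0.0411, limma adjusted p = 0.204). The DMSO values were identical, and the level was low: only 47.4% of all probe sets had a lower mean over the 4 arrays. Its other probe set, 210818_s_at, read 22.0 and 24.6, against 22.0 and 20.1, and its groups overlapped at 22.0. That probe set was among the 40% of lowest mean intensity, where nonspecific signal weighs most.

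The small MAF proteins have a DNA-binding leucine zipper but no activation domain, and are the obligate partners of NRF2 and BACH1. MAFG, on chromosome 17, read 51.4 and 54.7 with celastrol, against 33.5 and 34.0 with DMSO (204970_s_at). Both celastrol arrays were well clear of both DMSO arrays, and the gap between groups exceeded the gap within either pair. The difference was 0.64 (SE 0.0412, 95% interval 0.51 to 0.77), and the limma adjusted p of 0.0887 missed the threshold. With each array centred on its median or with quantile normalization the adjusted p was 0.0453 and 0.0442, and MAFG was then the 1 member that passed, against 0.626% and 0.887% of all probe sets. Leaving out the dimmest 40% gave MAFG an adjusted p of 0.0535, and 0 of the 9 member probe sets kept passed, against 0.908% of those tested.

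MAFF, a small MAF gene on chromosome 22 known to be stress-inducible, had 2 probe sets, both among the dimmest 40%. Probe set 36711_at read 19.6 and 18.5 with celastrol, against 16.1 and 16.5 with DMSO, a difference of 0.21 (SE 0.0402, limma adjusted p = 0.219). Probe set 205193_at read 20.6 and 19.1, against 19.6 and 18.9, and its groups overlapped. The probe sets of MAFF thus did not give the same picture, and the levels of both were near the low end of the table.

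SQSTM1, on chromosome 5, encodes p62, an autophagy receptor with a ubiquitin-binding domain and a KEAP1-interacting motif. Its probe set 201471_s_at read 3048 and 2563 with celastrol, against 1063 and 1274 with DMSO. Each celastrol value was more than 2-fold above each DMSO value. The difference was 1.26 (SE 0.150, 95% interval 0.78 to 1.74, limma adjusted p = 0.142), and 0.27% of all probe sets stood at least 2-fold higher. Probe set 213112_s_at read 100.2 and 66.3 with celastrol, against 43.7 and 47.8 with DMSO. Here the celastrol arrays differed from each other by 0.59 in log2, and the difference of 0.82 (SE 0.248) had an adjusted p of 0.367. Without celastrol replicate 1 it was 0.53.

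The remaining SQSTM1 probe sets, both drawn from accession U46752, did not separate the groups. Probe set 217252_at read 23.1 and 18.5 with celastrol, against 20.2 on both DMSO arrays. Probe set 217255_at read 19.9 and 18.1, against 21.7 and 16.6. Both were among the dimmest 40% of probe sets, and their 95% intervals, from -0.37 to 0.43 and from -0.52 to 0.51, did not reach the difference of 201471_s_at.

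**Figure D2:**
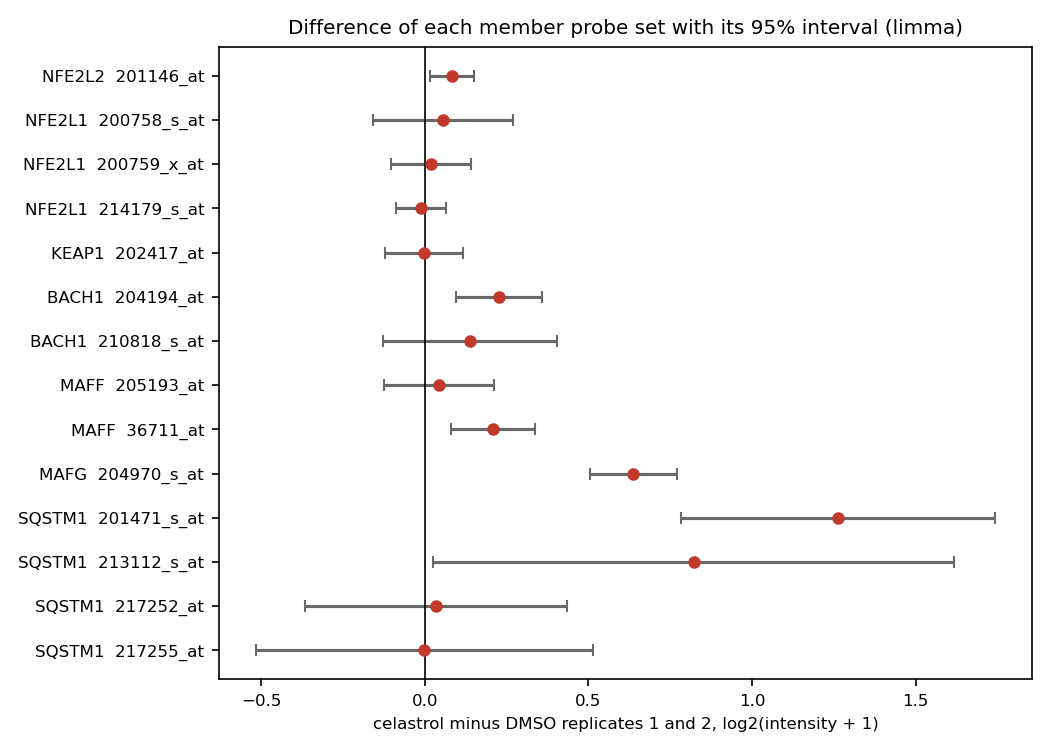
Difference of each member probe set, celastrol minus DMSO replicates 1 and 2 in log2(intensity + 1), with its 95% interval from limma before adjustment for multiple tests. SQSTM1 201471_s_at at 1.26, SQSTM1 213112_s_at at 0.82 and MAFG at 0.64 lie farthest from 0, and the intervals of KEAP1 and the NFE2L1 probe sets span 0.

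By the values over the 4 arrays, each gene centred on its own mean, the 5 of 12158 other genes nearest to SQSTM1 were TNFRSF21, HERPUD1, ME1, TXNRD1 and SLC3A2. Their root mean square distances from SQSTM1 were 0.0776, 0.0855, 0.0914, 0.0929 and 0.101 in log2. TNFRSF21 encodes a death receptor, HERPUD1 a component of endoplasmic reticulum-associated degradation, ME1 the cytosolic malic enzyme, TXNRD1 thioredoxin reductase and SLC3A2 the heavy chain of several amino acid transporters. ME1 read 1253 and 1205 with celastrol, against 517 and 593 with DMSO, and TXNRD1 read 2784 and 2728, against 1108 and 1203. Neither passed the limma test over the whole table (adjusted p = 0.0981 and 0.0654). On DMSO replicate 3 all 5 and SQSTM1 stood below the mean of DMSO replicates 1 and 2, with differences of -0.57 for SLC3A2, -2.63 for TNFRSF21 and -2.17 for SQSTM1.

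**Figure D3:**
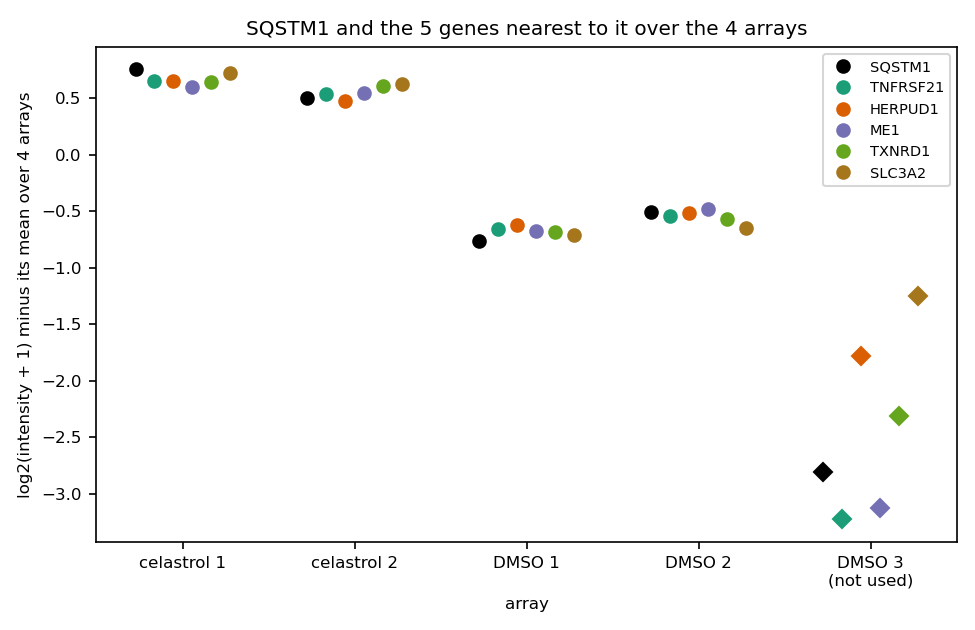
Values of SQSTM1 (black) and the 5 genes nearest to it on each array, in log2(intensity + 1) minus the gene's mean over the 4 arrays compared. The genes were chosen by their distance from SQSTM1 over these 4 arrays, so their closeness there follows from the choice. DMSO replicate 3 (diamonds) did not enter it.

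The promoter windows of RefSeq (GRCh38.p14, 250 bases before to 50 after an annotated start) were searched for motifs of factors active in stress. A total of 15 windows matched 7 of the 8 genes. The motifs were the core of the antioxidant response element (TGACNNNGC), an AP-1 site (TGACTCA), a cAMP response element (TGACGTCA), an E-box (CACGTG) and a heat shock element core (GAANNTTC), each on both strands. Shown first are the members with the largest differences, SQSTM1 at the window of chr5:179820655-179820954 (plus strand) and MAFG at chr17:81927686-81927985 (minus strand). The 2 member windows with an antioxidant response element core follow, KEAP1 at chr19:10502722-10503021 (minus strand) and MAFF at chr22:38201744-38202043 (plus strand). Capitals mark the motif matches, and no 2 of them overlap.
SQSTM1: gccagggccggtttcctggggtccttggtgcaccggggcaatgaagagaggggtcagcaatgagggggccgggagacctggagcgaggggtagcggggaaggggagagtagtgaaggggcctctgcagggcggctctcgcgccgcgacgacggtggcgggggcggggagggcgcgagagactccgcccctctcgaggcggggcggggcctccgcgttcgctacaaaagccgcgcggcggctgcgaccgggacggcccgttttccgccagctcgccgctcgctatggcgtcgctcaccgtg
MAFG: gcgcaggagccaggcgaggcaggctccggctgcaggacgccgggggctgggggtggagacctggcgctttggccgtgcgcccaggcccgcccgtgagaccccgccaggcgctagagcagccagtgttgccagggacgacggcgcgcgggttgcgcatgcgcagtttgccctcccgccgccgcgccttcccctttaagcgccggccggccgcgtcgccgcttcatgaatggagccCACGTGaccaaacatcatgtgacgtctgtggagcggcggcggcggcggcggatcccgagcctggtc
KEAP1: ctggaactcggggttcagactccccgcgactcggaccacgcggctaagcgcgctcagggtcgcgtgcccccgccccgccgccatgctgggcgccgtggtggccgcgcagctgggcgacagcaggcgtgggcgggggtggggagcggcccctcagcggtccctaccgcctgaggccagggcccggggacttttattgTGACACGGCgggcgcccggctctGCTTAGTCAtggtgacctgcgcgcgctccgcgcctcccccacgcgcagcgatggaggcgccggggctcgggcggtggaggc
MAFF: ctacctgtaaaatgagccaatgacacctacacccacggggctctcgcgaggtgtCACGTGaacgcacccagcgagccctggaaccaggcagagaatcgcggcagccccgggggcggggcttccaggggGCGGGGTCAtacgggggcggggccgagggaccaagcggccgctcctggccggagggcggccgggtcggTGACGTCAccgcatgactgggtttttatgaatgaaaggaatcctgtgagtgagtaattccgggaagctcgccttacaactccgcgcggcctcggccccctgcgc

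None of the 5 motifs was found in this SQSTM1 window or in the other SQSTM1 windows of the table. MAFG held an E-box starting 16 bases before the start site. KEAP1 held 2 antioxidant response element cores, starting 54 bases before the start site and, on the opposite strand, 31 bases before it. MAFF held 1 such core 122 bases before the start site on the opposite strand, a cAMP response element 54 bases before it and an E-box 196 bases before it, and its other window held an E-box 81 bases before that start site. In all, 3 of the 15 windows held an E-box. An AP-1 site was found in 1 window of BACH1 and a heat shock element core in 0 of the 15. Of all 34943 windows, 13.3% held the antioxidant response element core, 4.96% the AP-1 site, 1.84% the cAMP response element, 7.23% the E-box and 6.79% the heat shock element core. A match is not a bound site, and its absence says only that these letters are not in the window.

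The genes NRF2 acts on were counted by a list of known targets. This list and the related lists below were chosen with earlier results of these data known, so their shares describe them only. Of 29 measured NRF2 targets, 22 had both celastrol arrays above both DMSO arrays, against 15.0% of all genes, and 1 had both below, against 19.4%. The median difference was 0.42, against 0.00 over all genes and 0.08 over the 7 members. Of the 29, 0 passed the limma test in either direction over the whole table, where 0.0164% of all genes did. Of the 28 that remained with the dimmest 40% left out, 5 passed, against 1.04% of all genes: HMOX1, CBR3, SLC7A11, AKR1C1 and TXNRD1, all higher.

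HMOX1, the heme oxygenase repressed by BACH1, read 3924 and 4853 with celastrol, against 61.9 and 79.2 with DMSO. CBR3, a carbonyl reductase, read 263 and 271, against 47.7 and 51.3. SLC7A11, the cystine transporter, read 1789 and 1811, against 531 and 569. HMOX1 was 61.4-fold, CBR3 5.31-fold and SLC7A11 3.27-fold above DMSO. GCLM, the modifier subunit of glutamate-cysteine ligase, read 1040 and 879, against 314 and 263, a difference of 1.73 (limma adjusted p = 0.104). The aldo-keto reductases AKR1C1 and AKR1C2 differed by 1.72 and 1.89, but their probe sets are of a kind that can detect close paralogs, so the 2 cannot be fully told apart. At the other end TXN, GSR, EPHX1, GPX2 and the transporter genes ABCC2, ABCC3 and ABCC4 differed by -0.04 to 0.07. Of these, GPX2, ABCC2 and ABCC3 were dim, reading 21.1 to 23.9 on the arrays compared. At such levels low expression and background cannot be separated, so their values cannot show whether these genes responded.

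**Figure D4:**
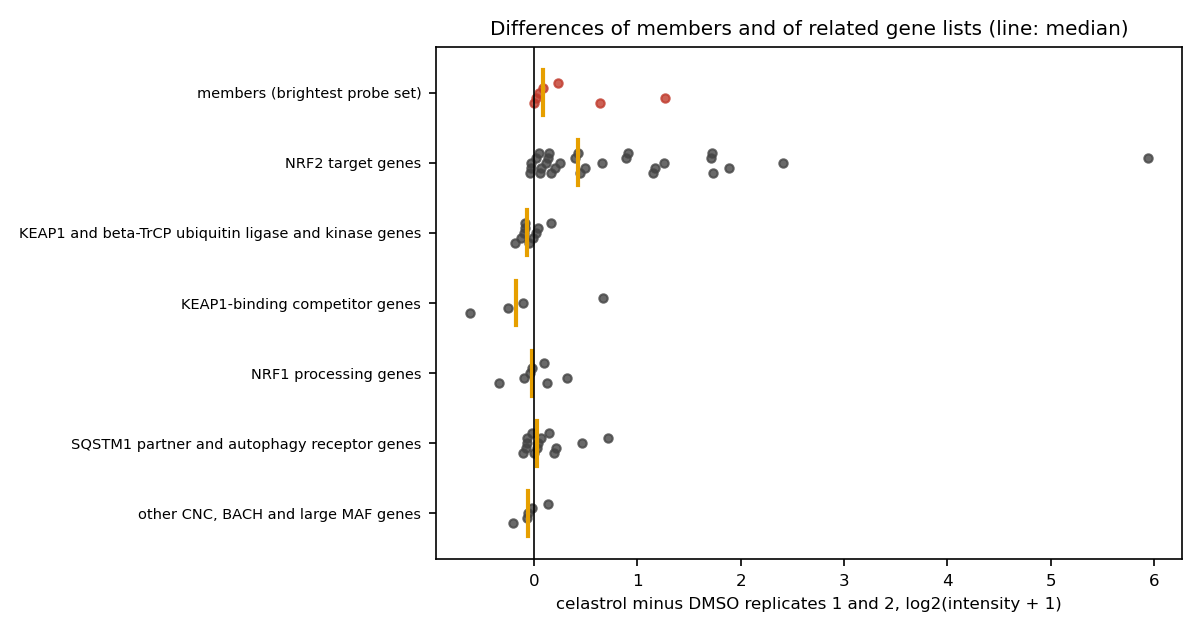
Difference of each gene, celastrol minus DMSO replicates 1 and 2 in log2(intensity + 1), for the 7 measured members (red) and the related lists (grey), with the median of each as an orange line. The NRF2 targets reach 5.94 (HMOX1) with a median of 0.42, while the medians of the other lists lie between -0.18 and 0.03.

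The lists of genes around KEAP1 and SQSTM1 had medians near 0 or below it, and their counts are to be read against the shares of all genes: 0.0164% passed the test, 15.0% lay above DMSO on both arrays and 19.4% below. Among 10 measured genes of the ubiquitin ligases and kinases that control NRF2 turnover, 0 passed the test in either direction, 1 lay above DMSO on both arrays and 3 below, and the differences ran from -0.19 to 0.16. CUL3, the scaffold of the KEAP1 ligase, read 699 and 666 with celastrol, against 722 and 765 with DMSO. CAND1, an exchange factor for cullin ligases, had the lowest value of the list at -0.19, and CUL1, a cullin of the beta-TrCP ligase, the highest at 0.16. The value of CAND1 was -0.11 without celastrol replicate 1, and that of CUL3, -0.12, was -0.08 without DMSO replicate 2.

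Of 4 measured genes whose proteins bind KEAP1 or compete with it for NRF2, 1 lay above DMSO (15.0% of all genes) and 2 below (19.4%), and 0 passed. CDKN1A, the p21 gene, read 1183 and 1165 with celastrol, against 658 and 829 with DMSO. PALB2 read 28.3 and 31.0, against 54.8 and 38.8, and BRCA1 read 44.3 and 38.8, against 49.5 on both DMSO arrays. These differences were 0.67, -0.62 and -0.25 (limma adjusted p = 0.239, 0.413 and 0.382). PALB2 stood at -0.38 without DMSO replicate 1, and BRCA1 at -0.16 without celastrol replicate 2.

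Among 7 measured genes of NRF1 processing 0 passed, 2 lay above DMSO (15.0% of all genes) and 2 below (19.4%), with a median of -0.02. SEL1L, a partner of the ligase of endoplasmic reticulum-associated degradation, differed by 0.32, OGT, the O-GlcNAc transferase, by -0.34 and DERL1, a channel component of that pathway, by -0.10. Without DMSO replicate 2 OGT stood at -0.19 and DERL1 at -0.05, and DERL1 at -0.06 without celastrol replicate 1 and -0.16 without DMSO replicate 1. Of 14 measured partners of SQSTM1 and autophagy receptors 0 passed and 5 lay above DMSO, 35.7%, against 15.0% of all genes. Another 2 lay below, against 19.4%, and the median was 0.03. GABARAPL1, which encodes an ATG8-family protein that binds p62, read 100.8 and 97.7 with celastrol, against 65.2 and 55.2 with DMSO. TBK1, a kinase that phosphorylates p62, differed by 0.47 and CALCOCO2, another autophagy receptor, by 0.21, while MAP1LC3B differed by 0.04.

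The other CNC, BACH and large MAF genes gave little signal. Of 5 measured, 4 were among the dimmest 40% and 0 passed, against 0.0164% of all genes. On both celastrol arrays 1 lay below DMSO, against 19.4% of all genes, and 0 above, against 15.0%. The large MAF gene MAF read 28.3 on both celastrol arrays, against 33.6 and 31.8 with DMSO, a difference of -0.20 (limma adjusted p = 0.203). NFE2, NFE2L3, BACH2 and NRL overlapped between groups.

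On DMSO replicate 3 most members stood low. It lay below all 4 other arrays for 8 of 14 probe sets, against 35.0% of all probe sets, and at least 2-fold below the mean of the other DMSO arrays for 3, against 10.1%. SQSTM1 201471_s_at read 257 on it, 4.51-fold below that mean. KEAP1 read 198, NFE2L2 239 and the 3 NFE2L1 probe sets 397, 299 and 169. MAFG went the other way: it read 46.3, between the celastrol values and those of DMSO replicates 1 and 2. With this array among the controls the SQSTM1 difference was 1.99 and that of MAFG 0.49, and the KEAP1 difference was 0.32. On this array all 8 measured luminal markers were also lower and all 11 measured leukocyte markers higher. Their part in the member values was not tested. FOLH1 read 20.6 on it, against 7094 and 7374 on DMSO replicates 1 and 2, and CD74 read 8847, against 20.7 on each. The profile of DMSO replicate 3 was not LNCaP-like, so its member values are not read as a DMSO level of LNCaP cells.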

How the data were processed

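Total RNA from 2 celastrol and 3 DMSO samples was extracted with Trizol and hybridised as biotinylated cRNA, per the labels' protocols. The title was followed for the group, as the description of DMSO samples speaks of celastrol. The authors deposited linear intensity values, 1 for each probe set on each array. Per the submitters' processing notes RMA was used. Its version is not stated in the sources used here. Total intensity ran from 4939397 to 5348496 per array. No detection calls were used, and the number of arrays limits the precision. Probe sets were named by the platform annotation, and 19707 symbols were looked up by Entrez ID.

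Values were taken as log2(intensity + 1), and limma (version 3.58.1, R 4.3.3) with lmFit and eBayes was fitted to all 22215 probe sets on 4 arrays. Tests were two-sided and adjusted by Benjamini-Hochberg over the table, with a threshold of 0.05. The fit was tested on simulated normal values, which hold no ties within a pair, so that test does not cover tied probe sets. A listed gene is represented by its probe set of highest mean over the 4 arrays. Named genes are all members, HMOX1, up to 6 NRF2 targets and 3 of each other list with the largest absolute difference among those without overlap, check genes, and the 5 genes nearest to the leading member. TXNRD1, the targets near 0, MAP1LC3B and the overlapping CNC genes were named after their values were seen. Members and lists were chosen with earlier results of these data known. Alternatives covered the arrays, filters, normalization, pseudocount, variance model, replicate block and each array left out.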

Additional observations from a re-analysis of the deposited data

Results flagged for a closer look

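DMSO replicate 3, which is outside the comparison, read above both other DMSO arrays for 4 of 14 member probe sets. The share of all probe sets was not counted, so this count describes the members only. MAFG read 46.3 on it, against 33.5 and 34.0. BACH1 210818_s_at read 23.7, MAFF 36711_at 17.7 and SQSTM1 217252_at 21.5, each among the dimmest 40% of probe sets, against highest values of 22.0, 16.5 and 20.2 on DMSO replicates 1 and 2.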

How the results depend on the processing

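The count of probe sets past the threshold, 2 of 22215, depended on the setting, and the cause was not tested. It was 121 with the dimmest 40% by the mean of the 4 arrays left out and 130 by the mean of all 5, 197 with quantile normalization, 139 with median centring and 43 with log2(intensity + 16). It was 2 with trend and robust variance and 0 with all 5 arrays. With the replicate block it was 0. The differences of replicates 1 and 2 correlated between groups at r = -0.0197 over probe sets. No shift shared by replicate number was thus seen, but this cannot settle whether the replicates were paired. With any of the 4 arrays left out it was 0, where few degrees of freedom remain. Among member probe sets the count was 1 with quantile normalization and 1 with median centring, each time MAFG, and 0 in every other setting run. The pathway lists held 29, 10, 4, 7, 14 and 5 measured genes and were chosen with earlier results known. Of all genes 1.04% passed with the 4-array dim filter. Of all probe sets 0.887% passed with quantile normalization and 0.626% with median centring. Among the list genes the count was 5 under both dim filters, 9 with quantile normalization and 7 with median centring. It was 3 with log2(intensity + 16) and 0 in every other setting that kept the 4 arrays. With 1 array left out these 2 counts were 0 throughout, and the replicate block changed no other call. The SQSTM1 difference (201471_s_at) stayed between 1.13 and 1.39 and that of MAFG between 0.47 and 0.68 over the settings of the 4 arrays. With all 5 arrays the median of NRF2 targets was 0.90, of KEAP1-binding competitors -0.47 and of SQSTM1 partners 0.31, against 0.42, -0.18 and 0.03 on the 4. Both MAFF probe sets, 1 of 2 of BACH1 and 2 of 4 of SQSTM1 were among the dimmest 40%, where low expression and background cannot be separated.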
